A study of Homo sapiens with 10 samples.

Results

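The angiopoietin and VEGF systems were followed through 10 genes: ANGPT1, ANGPTL2, ANGPTL4, TEK, VEGFA, VEGFB, VEGFC, FLT1, NRP1 and NRP2. The probe sets studied were all those to which the platform annotation gave exactly 1 of these symbols, 34 of the 54675 probe sets on the array, and they covered 9 of the 10 genes. ANGPTL2 had no such probe set and was not analysed here. The samples were 5 senescent and 5 proliferating preparations of IMR90, an established line of untransformed human fetal lung fibroblasts, each on its own Affymetrix array. Senescent cells were at 90 population doublings, had been passaged until they stopped dividing and were then held in dishes for 2 weeks. Proliferating cells were at 28 population doublings, and both groups were grown in 3% oxygen with 10% serum. All samples came from a single line, so growth state, passage number and the holding period cannot be told apart. Whether the samples of a group were separate cultures is not stated in the labels, and the p-values below therefore rest on a spread that may be technical.

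Angiopoietins are secreted ligands of the receptor tyrosine kinase TEK (Tie2) on endothelial cells, and ANGPT1, made by mesenchymal cells around vessels, activates that receptor and stabilises vessels. VEGF ligands act through receptor tyrosine kinases: VEGFA and VEGFB bind FLT1 (VEGFR1), VEGFA also binds KDR (VEGFR2), and VEGFC binds FLT4 (VEGFR3) on lymphatic endothelium. Neuropilins NRP1 and NRP2 are co-receptors for VEGFs and for class 3 semaphorins. Angiopoietin-like proteins resemble angiopoietins in structure but do not bind TEK, and ANGPTL4 inhibits lipoprotein lipase. Transcription of VEGFA and ANGPTL4 is known to be raised by hypoxia-inducible factors (HIFs), and that of ANGPTL4 also by the fatty acid receptors of the PPAR family.

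RefSeq promoter sequences of build GRCh38.p14 were found for 7 of the 10 genes, and 4 are shown because their genes moved in opposite directions below. Each run covers the 250 bases before the annotated gene start, read 5′ to 3′ on the gene's strand. Capitals mark the HIF core motif, searched as ACGTG and as GCGTG on both strands, so that CACGT and CACGC mark matches on the opposite strand.
ANGPTL4, chr19:8363905-8364154, plus strand: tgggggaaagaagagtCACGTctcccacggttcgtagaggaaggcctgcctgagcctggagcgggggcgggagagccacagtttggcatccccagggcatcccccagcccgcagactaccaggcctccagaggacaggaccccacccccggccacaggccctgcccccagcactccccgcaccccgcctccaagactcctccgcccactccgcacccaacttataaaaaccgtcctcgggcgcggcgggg
VEGFC, chr4:176792923-176793172, minus strand: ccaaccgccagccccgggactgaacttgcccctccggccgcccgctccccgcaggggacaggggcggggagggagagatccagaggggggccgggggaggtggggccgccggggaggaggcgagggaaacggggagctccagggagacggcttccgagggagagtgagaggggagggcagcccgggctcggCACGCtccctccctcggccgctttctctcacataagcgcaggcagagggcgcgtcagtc
FLT1, chr13:28495129-28495378, minus strand: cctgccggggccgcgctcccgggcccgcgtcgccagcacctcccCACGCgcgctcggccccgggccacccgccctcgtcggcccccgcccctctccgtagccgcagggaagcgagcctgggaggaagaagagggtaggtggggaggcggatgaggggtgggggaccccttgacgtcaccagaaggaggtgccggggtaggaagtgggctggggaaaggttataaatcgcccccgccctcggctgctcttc
NRP2, chr2:205682251-205682500, plus strand: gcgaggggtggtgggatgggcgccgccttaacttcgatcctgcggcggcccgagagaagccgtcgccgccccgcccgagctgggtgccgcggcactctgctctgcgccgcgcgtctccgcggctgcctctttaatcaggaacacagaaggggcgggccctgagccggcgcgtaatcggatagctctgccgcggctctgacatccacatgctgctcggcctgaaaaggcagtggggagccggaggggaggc
The windows of ANGPTL4, VEGFC and FLT1 each held 1 match, beginning 234, 59 and 206 bases before the start, and that of NRP2 held 0. Of 35116 promoter windows of this length, 43.2% held at least 1 of these motifs. All 4 windows shown were richer in CG dinucleotides (16, 22, 25 and 29, in the order shown) than the median window (11). Among the windows not shown, VEGFB had 30 and ANGPTL2 12, while those of TEK had 5 and 1. The VEGFB window held 1 match, and those of ANGPTL2 and TEK held 0. Any part of these motifs in the changes below was not tested.

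Median log2 values of the 10 arrays ranged from 3.05 to 3.12, and correlations between arrays were 0.992 to 0.997 within groups and 0.940 to 0.947 between them. CDKN2A, the gene of p16 and a criterion of senescence in the labels, averaged 7.63 ± 0.18 in senescent and 4.43 ± 0.96 in proliferating samples (SD, n = 5 each). All 12 fibroblast markers lay above the array's 60th percentile (4.64 to 4.77) on every array, and their summed log2 values were 140.4 to 141.7 in senescent and 141.3 to 144.4 in proliferating samples. The 3′ minus 5′ signal of the ACTB control, a sign of RNA integrity, was 2.32 ± 0.10 in senescent and 2.07 ± 0.14 in proliferating samples (SD, n = 5 each), a difference of 0.25 with an exact permutation p = 0.00794 (two-sided), the lowest value possible with 252 assignments. The groups did not overlap in this signal (2.24 to 2.47 in senescent and 1.85 to 2.19 in proliferating samples), so a fit can hardly separate it from group. Values fitted with it as a covariate are given beside each member whose call they change. The same holds for genes named by the size of their difference, but not for genes named after their values were seen.

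The members changed in both directions. Tests were made only where 5 or more of the 10 arrays exceeded their own 40th percentile, and 29 of the 34 members met this. With limma's test, adjusted by Benjamini-Hochberg over all 32732 tested probe sets with a threshold of 0.05, 8 members were higher and 15 lower in senescent cells, and 6 did not pass. The background for these counts was high: 53% of all tested probe sets passed, 26.9% higher and 26.2% lower. The median log2 difference, senescent minus proliferating throughout, was -0.29 over the tested members and 0.03 over all tested probe sets. Member probe sets of a gene are not independent, since 10 of the 29 belong to NRP2. The groups did not overlap in 19 members, 8 higher and 11 lower, while 44.5% of all tested probe sets had no overlap. A called difference of at least 2-fold was seen in 12 members and in 17.8% of all tested probe sets. With arrays centred on 23 reference genes, the median over all tested probe sets went to -0.14. The share of calls that were higher went to 34.8% in place of 50.7%, and members gave 6 higher and 17 lower calls. The direction of small differences thus depends on the scaling. These reference genes were not themselves stable: 5 were called higher and 9 lower, 60.9% against 60.2% over all tested genes.

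**Figure D1:**
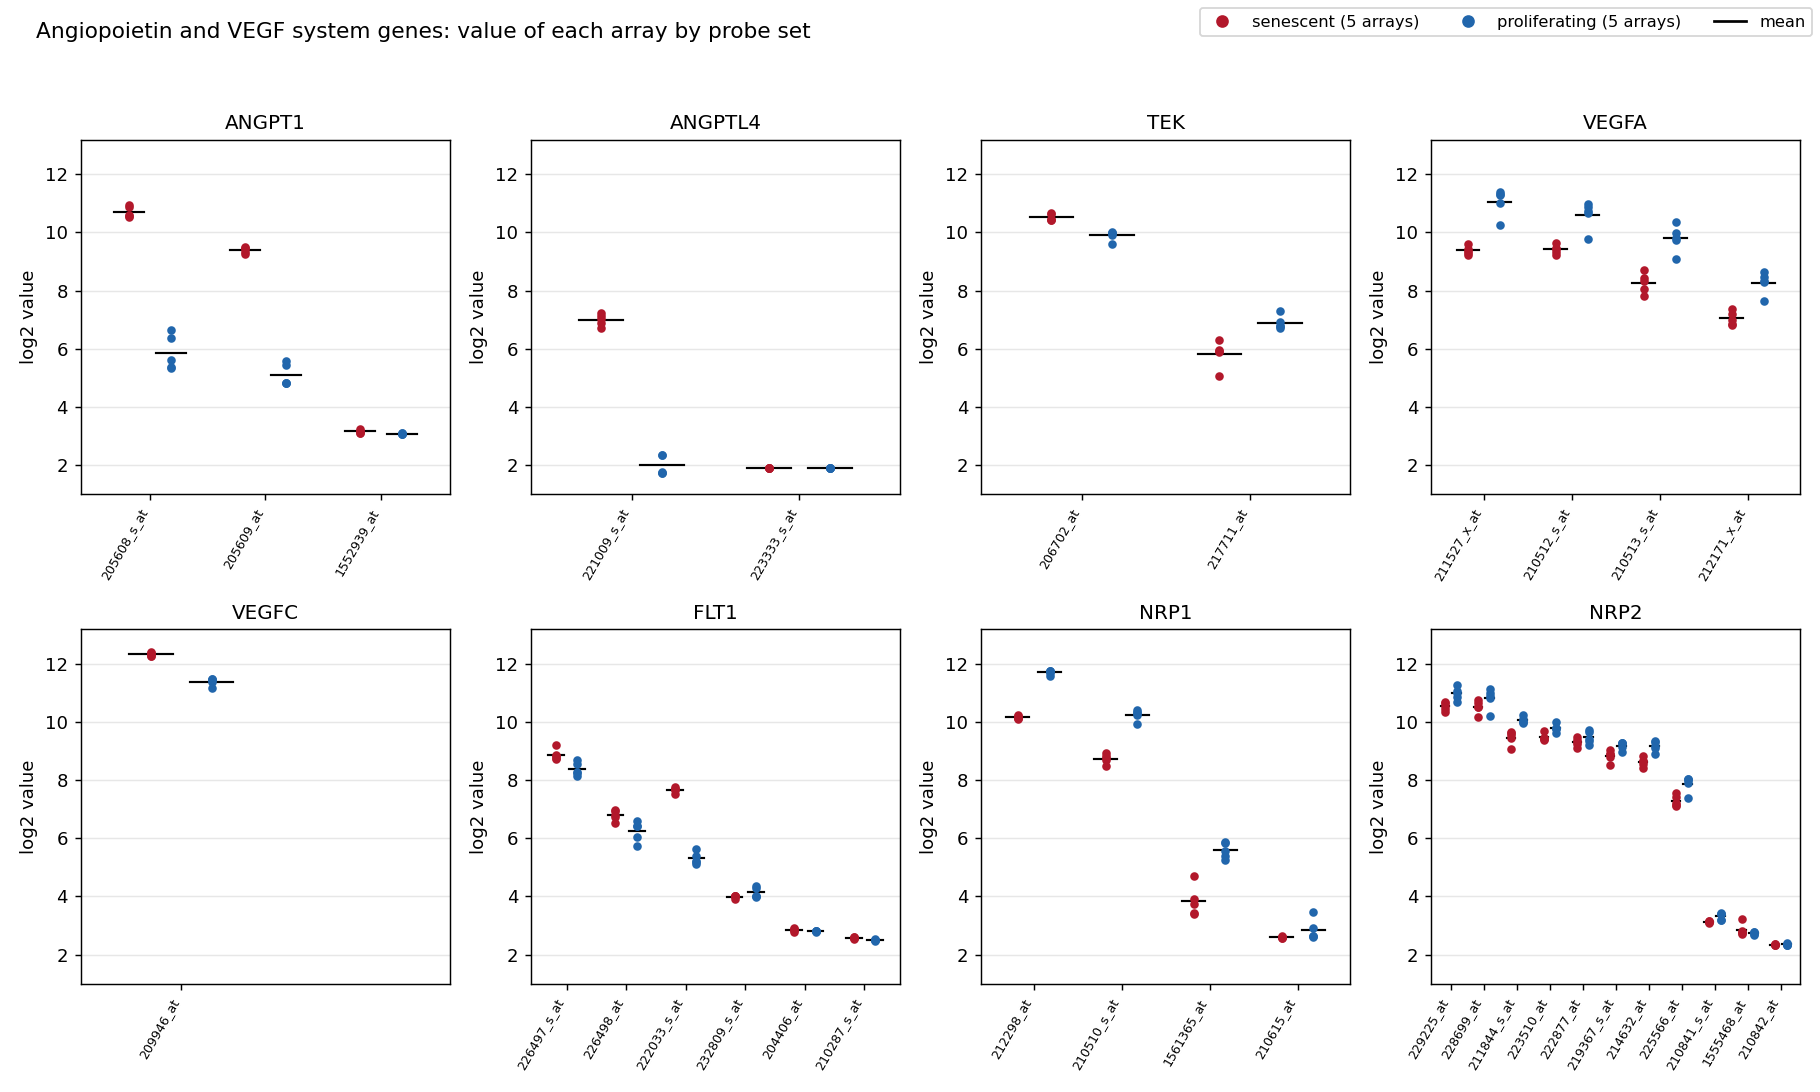
Deposited log2 value of each array (points) and group mean (lines) for every probe set of 8 member genes, senescent left of proliferating. ANGPT1 and ANGPTL4 show the widest gaps between groups, each on some of its probe sets, while the VEGFA and NRP1 probe sets with signal all lie lower in senescent cells.

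ANGPT1, the activating ligand of TEK, was far higher in senescent cells. Probe set 205608_s_at had log2 values of 10.94, 10.88, 10.53, 10.57 and 10.59 in senescent samples 1 to 5, against 5.34, 6.65, 5.60, 5.37 and 6.37 in proliferating samples 1 to 5. All senescent arrays were close together and above all proliferating ones, among which samples 2 and 5 were highest. The difference was 4.84 (SE 0.26), which is 28.6-fold higher, with limma's adjusted p = 1.3e-07. On 205609_at the values were 9.43, 9.34, 9.26, 9.46 and 9.50 in senescent samples, against 4.82, 4.81, 5.44, 4.83 and 5.57 in proliferating samples, 19.8-fold higher (log2 difference 4.31, SE 0.16, limma's adjusted p = 1.1e-08). The changes on these 2 probe sets differed by 0.53, which did not pass (exact permutation p = 0.127 and 0.267 after adjustment over 42 pairs of member probe sets). The third, 1552939_at, lay between 3.04 and 3.24 on all arrays, below the 60th percentile everywhere. Its senescent values were all above its proliferating values, but the difference of 0.09 did not pass (limma's adjusted p = 0.083) except without the filter (0.038) and with a trended, robust fit (0.047).

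ANGPTL4, the secreted inhibitor of lipoprotein lipase, had signal on 221009_s_at in senescent but not in proliferating cells. Its log2 values were 6.72, 6.89, 7.13, 7.22 and 7.01 in senescent samples, against 1.76, 2.34, 1.73, 1.72 and 2.32 in proliferating samples. Every proliferating value lay below the array's 40th percentile, so the probe set passed the filter through the senescent arrays alone and had to differ. The log2 difference was 5.02 (SE 0.16), 32.5-fold, with limma's adjusted p = 3.3e-09, and its size depends on the background correction. Probe set 223333_s_at stayed between 1.87 and 1.90 on all 10 arrays, below the 40th percentile, and was not tested. Over the alternatives that tested them, the lowest and highest differences were 4.66 and 5.43 for ANGPT1 205608_s_at and 4.84 and 5.34 for ANGPTL4 221009_s_at.

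TEK, the angiopoietin receptor, was measured by 2 probe sets that moved in opposite directions. On 206702_at the log2 values were 10.64, 10.47, 10.66, 10.43 and 10.43 in senescent samples, against 9.99, 9.93, 10.01, 9.98 and 9.59 in proliferating samples, a rise of 1.54-fold (log2 difference 0.62, SE 0.09, limma's adjusted p = 0.00019). On 217711_at they were 6.30, 5.90, 5.06, 5.89 and 5.95 in senescent samples, against 6.90, 6.71, 7.30, 6.78 and 6.77 in proliferating samples (log2 difference -1.08, SE 0.21, limma's adjusted p = 0.0015). The groups did not overlap on either probe set, and both calls held in all alternatives run. Within arrays, 206702_at exceeded 217711_at by 4.34 to 5.60 in senescent and by 2.72 to 3.22 in proliferating samples, a difference of 1.70 between the groups (exact permutation p = 0.00794, 0.0476 after adjustment over the 42 pairs). The mean of both probe sets differed by -0.23 and did not pass (limma's adjusted p = 0.11), so no single direction can be given for TEK.

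**Figure D2:**
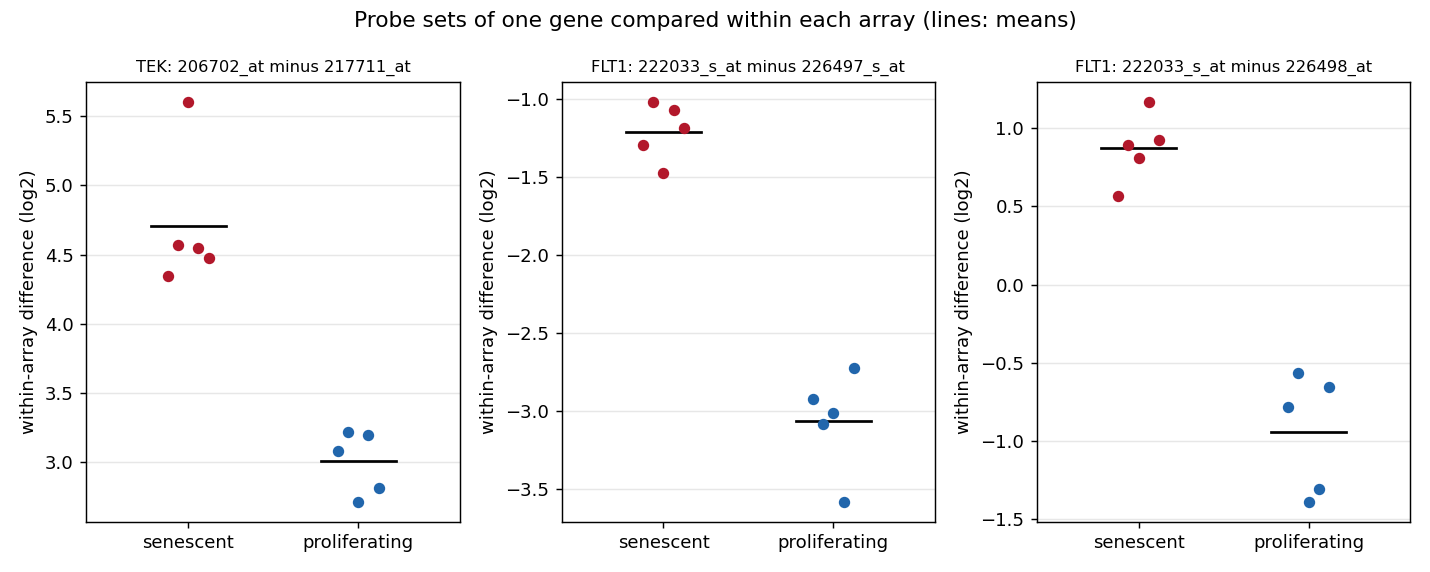
Difference between 2 probe sets of the same gene within each array, on the log2 scale, for TEK and FLT1, with senescent arrays left of proliferating arrays and lines at group means. In all 3 panels the senescent arrays lie above all proliferating arrays, so the probe sets changed unequally.

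VEGFA, the main endothelial mitogen of the family, was lower in senescent cells on all 4 of its probe sets. On 211527_x_at the log2 values were 9.44, 9.35, 9.31, 9.61 and 9.21 in senescent samples, against 11.39, 11.29, 11.02, 11.31 and 10.25 in proliferating samples. The groups did not overlap, and proliferating sample 5 was the lowest of its group. The log2 difference was -1.67 (SE 0.20), 3.18-fold lower in senescent cells, with limma's adjusted p = 5.3e-05. The other 3 probe sets, 210513_s_at, 212171_x_at and 210512_s_at, differed by -1.52, -1.22 and -1.18, also without overlap (the highest of limma's adjusted p was 0.00072). Proliferating sample 5 was the lowest of its group on each of these, at 9.09, 7.62 and 9.77, and without it the 4 differences were -1.87, -1.70, -1.38 and -1.39, the order being 211527_x_at, 210513_s_at, 212171_x_at and 210512_s_at. The suffixes of all 4 probe set names (_s_at or _x_at) mark probes shared between transcripts or genes. Of 6 pairs of VEGFA probe sets 1 changed unequally, 211527_x_at falling by more than 212171_x_at (0.0476 after adjustment, exact permutation test).

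The other VEGF ligands did not follow VEGFA. VEGFC, the lymphatic growth factor, had log2 values of 12.43, 12.35, 12.37, 12.28 and 12.27 in senescent samples, against 11.47, 11.17, 11.49, 11.39 and 11.48 in proliferating samples on 209946_at. All senescent values were higher, and the difference of 0.94 (SE 0.07) is 1.92-fold (limma's adjusted p = 1.2e-06). Over all alternatives VEGFC differed by 0.75 to 0.97 and passed in each. VEGFB, a ligand of FLT1 alone among the VEGF receptors, was measured by a single probe set, 203683_s_at, that lay between 1.73 and 1.79 on all 10 arrays, below the 40th percentile, so it was not tested and gives no information on VEGFB.

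FLT1, the receptor of VEGFA and VEGFB whose soluble form is known to trap these ligands, was higher on the 3 of its 6 probe sets with signal above the 60th percentile. On 222033_s_at the log2 values were 7.55, 7.71, 7.75, 7.71 and 7.67 in senescent samples, against 5.64, 5.19, 5.22, 5.11 and 5.40 in proliferating samples, a rise of 5.15-fold (log2 difference 2.37, SE 0.10, limma's adjusted p = 1.9e-08). On 226497_s_at the values were 8.84, 8.74, 9.23, 8.78 and 8.86 in senescent samples, against 8.57, 8.28, 8.24, 8.69 and 8.13 in proliferating samples, and the groups were separated narrowly (0.51, SE 0.13, limma's adjusted p = 0.0068). On 226498_at the groups overlapped, at 6.54 to 6.98 in senescent and 5.75 to 6.61 in proliferating samples (0.55, SE 0.16, limma's adjusted p = 0.014). The rise on 222033_s_at exceeded that on 226497_s_at by 1.86 and that on 226498_at by 1.81 (exact permutation p = 0.00794 each, 0.0476 after adjustment). With the ACTB covariate the calls of 226497_s_at and 226498_at were lost, at 0.29 and 0.06 (limma's adjusted p = 0.25 and 0.74). They were also lost with reference gene centring, at 0.33 and 0.38 (limma's adjusted p = 0.084 and 0.11). In contrast, 222033_s_at passed in every alternative that tested it, with differences of 2.19 to 2.45. As a shared probe set, it was not tested where shared probe sets were left out. The remaining probe sets, 232809_s_at, 204406_at and 210287_s_at, lay below the 60th percentile on every array, with differences of -0.15, 0.05 and 0.07. The first 2 of these did not pass and the last was not tested. With reference gene centring 232809_s_at was called lower, at -0.33 (limma's adjusted p = 0.031). The files do not tell which FLT1 transcript each probe set detects.

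NRP1, the co-receptor of VEGFA and of semaphorin 3A, fell on all 3 of its tested probe sets. On 212298_at the log2 values were 10.25, 10.16, 10.12, 10.21 and 10.14 in senescent samples, against 11.76, 11.59, 11.70, 11.77 and 11.78 in proliferating samples. The 2 groups were tight and far apart, 2.93-fold lower in senescent cells (log2 difference -1.55, SE 0.05, limma's adjusted p = 3.2e-09). On 210510_s_at the difference was -1.51 (SE 0.11, limma's adjusted p = 9.2e-07) and on 1561365_at -1.76 (SE 0.24, limma's adjusted p = 0.00013), the groups not overlapping on either. Only 1 senescent array lay above the 60th percentile on 1561365_at, so the size of that fall depends on the background correction. No difference in the size of the change passed among the 3 pairs of these probe sets (adjusted exact permutation p 0.521 to 0.858). For 212298_at against 210510_s_at that difference was -0.04. Probe set 210615_at lay below the 60th percentile everywhere and was not tested, and proliferating sample 5 stood highest there at 3.48.

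NRP2, the co-receptor of VEGFC and of semaphorin 3F, was lower by smaller amounts. Of its 11 probe sets 10 were tested, of which 7 fell, 3 did not pass and none rose. The largest fall was on 211844_s_at, with log2 values of 9.63, 9.65, 9.55, 9.45 and 9.09 in senescent samples, against 10.06, 10.24, 10.00, 10.10 and 9.98 in proliferating samples, and the groups did not overlap. That fall is 1.52-fold (log2 difference -0.60, SE 0.11, limma's adjusted p = 0.00079). Probe sets 225566_at and 214632_at differed by -0.59 and -0.55, 229225_at by -0.45, 219367_s_at by -0.34 and 223510_at by -0.31, and the highest of limma's adjusted p was 0.016. With signal but no call were 228699_at (-0.29, limma's adjusted p = 0.19) and 222877_at (-0.16, limma's adjusted p = 0.23). Without proliferating sample 5, at 10.21 the lowest of its group, 228699_at differed by -0.44 and passed (limma's adjusted p = 0.011), as it did with reference gene centring (-0.46, limma's adjusted p = 0.038). The seventh call, 210841_s_at, rests on values of 3.08 to 3.41 below the 60th percentile on every array, and its difference of -0.19 did not pass without proliferating sample 1, 4 or 5 (-0.17 in each case). Probe set 1555468_at, also without signal above that percentile, differed by 0.11 and did not pass, and 210842_at was not tested. With the ACTB covariate the calls of 229225_at, 223510_at, 219367_s_at and 210841_s_at were lost. Their differences remained below 0, at -0.41, -0.26, -0.42 and -0.22 (limma's adjusted p = 0.095, 0.13, 0.062 and 0.096). The call of 222877_at was gained at -0.42 (limma's adjusted p = 0.024).

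**Figure D3:**
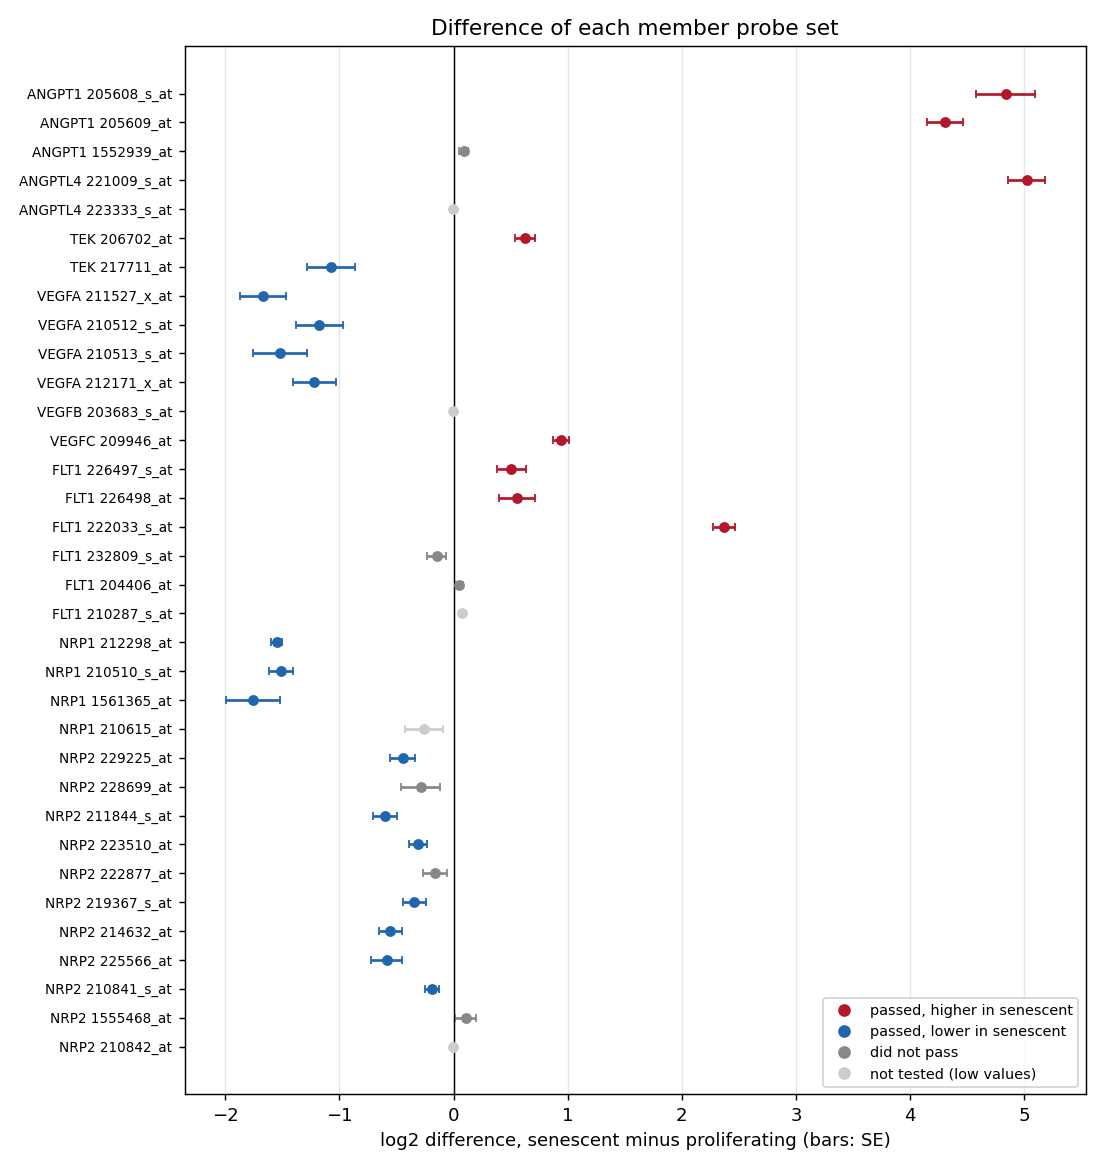
Log2 difference, senescent minus proliferating, of all 34 member probe sets with its standard error (limma's where tested, otherwise from the group SDs). The probe sets with differences near 0 that did not pass or were not tested include those with low signal on every array, and TEK is the only gene here with a called probe set on each side of 0.

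Most other genes of both systems on the array gave little signal, while the integrin subunits among the listed partners had high values. Of 22 listed ligands, receptors and partners, 18 had a probe set with 1 symbol, 9 were tested, and 11 had no probe set above the 60th percentile on any array, among them the receptors KDR, FLT4 and TIE1 and the TEK antagonist ANGPT2. Among the 9 tested genes, each represented by the brightest probe set tested, 2 rose and 1 fell, which is 33.3% called. The background over 12909 tested genes was 60.2% passing, 30.5% higher and 29.8% lower, with a median difference of 0.04, 20.3% called with at least a 2-fold difference and 51.8% without overlap of the groups. SVEP1, a large matrix protein reported to bind angiopoietins, rose by 3.36 (10.68 ± 0.15 in senescent and 7.32 ± 0.19 in proliferating samples, SD, n = 5 each, limma's adjusted p = 2.5e-09). ITGAV, the integrin alpha V subunit, rose by 0.47. That call was lost with reference gene centring (0.29, limma's adjusted p = 0.081) and with the ACTB covariate (0.37, limma's adjusted p = 0.077). PTPRB, the phosphatase VE-PTP that restrains TEK, fell by 2.02 to a low signal, at 3.48 ± 0.09 in senescent and 5.50 ± 0.26 in proliferating samples (SD, n = 5 each, limma's adjusted p = 2.1e-07). PGF, the FLT1 ligand placental growth factor, differed by 0.03 and did not pass (limma's adjusted p = 0.75).

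TEK and FLT1 had signal in cells where most endothelial markers had no signal. Of 12 endothelial markers, 11, including PECAM1, CDH5, VWF, KDR and TIE1, had their brightest probe set below the 60th percentile on every array, and the exception ROBO4 lay above it on 4 proliferating arrays. The summed log2 values of the 12 markers were 29.6 to 30.4 in senescent and 29.9 to 31.0 in proliferating samples. None of 6 leukocyte markers exceeded that percentile on any array, and their summed values were 13.7 to 14.2 in senescent and 13.7 to 13.9 in proliferating samples. Mural cell markers, of cells that surround vessels and release ANGPT1, were mixed: of 8 tested, 3 rose and 4 fell, and the sums of 9 genes were 66.2 to 67.9 in senescent and 70.2 to 72.3 in proliferating samples. RGS5, a pericyte marker, rose by 1.93 and MCAM by 1.19, while KCNJ8 fell by 5.14 and NOTCH3 by 1.28, these 4 being named after their values were seen. RGS5 had no proliferating array and KCNJ8 no senescent array above the 60th percentile, so the sizes of these differences depend on the background correction. Of 4 tested epithelial markers 1 rose and 3 fell, with sums over 8 genes of 34.8 to 36.3 in senescent and 39.0 to 39.5 in proliferating samples. Of 12 tested fibroblast markers 3 rose and 5 fell. The shares called were 87.5% of the mural, 100% of the epithelial and 66.7% of the fibroblast markers tested, against 60.2% over all tested genes. In such bulk samples fewer cells of a type and less RNA per cell cannot be told apart, and the part of these markers in the results was not tested.

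Of 12 tested plexins, class 3 semaphorins and co-receptor partners of the neuropilins 7 rose and 2 fell, 75% called against 60.2% over all tested genes, with a median of 0.32. HSPG2, the heparan sulphate proteoglycan perlecan, rose by 1.07, and the plexin co-receptors PLXNA2 and PLXNA3 rose by 0.94 and 0.77. PLXNA2 lay below the 60th percentile in both groups. Its proliferating mean of 2.51 was below the 40th percentile of the proliferating arrays (2.66 to 2.69), so the size of its rise depends on the background correction. PLXNA2 had no call when 4 arrays were set against 4 (limma's adjusted p = 0.056) or with the ACTB covariate (0.99, limma's adjusted p = 0.095). PLXNA3 had 1 proliferating array above the 60th percentile, and its tested probe sets differed by 0.52 to 1.71. The repulsive ligands SEMA3F, which signals through NRP2, and SEMA3A, through NRP1, fell by 0.83 and 0.22, SEMA3A losing its call with the mean of its probe sets. With reference gene centring the list gave 4 higher and 3 lower calls, and with the ACTB covariate 4 higher and 2 lower.

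Genes that release, process or oppose VEGF also moved both ways, 7 of 14 tested higher and 3 lower, 71.4% called, with a median of 0.34. The matrix protease gene MMP3, the matrix protease gene ADAMTS1, known to bind VEGFA, and the proprotein convertase gene PCSK5 rose by 4.82, 1.82 and 1.78. THBS2, an antiangiogenic matrix gene, fell by 3.34. VASH2 fell by 1.12, and ADAMTS3, the protease that activates VEGFC, fell by 0.73. VASH2 did not pass with the ACTB covariate (-0.94, limma's adjusted p = 0.082). FURIN and CCBE1, which also take part in VEGFC processing, rose by 0.61 and 0.34 (limma's adjusted p = 0.017 and 0.022). THBS1, the other thrombospondin gene of the list, rose by 0.33 on its brightest tested probe set (limma's adjusted p = 7.9e-05). The differences of its tested probe sets ranged from 0.25 to 2.70, so the size of its rise is not settled. FURIN, CCBE1 and THBS1 were named after their values were seen, and their single values under the alternatives are not given here. The list as a whole gave 5 higher and 4 lower calls with reference gene centring, and 7 and 2 with the ACTB covariate. MMP3 had no proliferating array, and VASH2 and ADAMTS3 no senescent array, above the 60th percentile. Only 1 proliferating array lay above it for VASH2 and 2 for ADAMTS3, so these falls rest on low values.

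In a list of known hypoxia targets, from which VEGFA and ANGPTL4 had been kept apart, 18 of 29 tested genes fell, 5 rose and 6 did not pass. That is 79.3% called against 60.2% over all tested genes, of which 29.8% were lower, and the list's median was -0.42. CA12, a carbonic anhydrase, fell by 4.32 (4.78 ± 0.48 in senescent and 9.10 ± 0.13 in proliferating samples, SD, n = 5 each), the aldolase gene ALDOC by 2.11 and NDRG1 by 1.58 (the highest of limma's adjusted p was 3e-06). ALDOC had no senescent array above the 60th percentile, so the size of its fall depends on the background correction. The MYC antagonist MXI1, the hexokinase gene HK2 and the collagen hydroxylase gene P4HA2 rose by 0.68, 0.63 and 0.50 on their brightest tested probe sets. P4HA2 had called probe sets in both directions, with differences from -0.74 to 0.50. The mean of the P4HA2 probe sets differed by -0.07, so no single direction can be given for P4HA2. P4HA2 and MXI1 did not pass with the ACTB covariate (0.30 and 0.63, limma's adjusted p = 0.19 and 0.22) or with reference gene centring (0.32 and 0.51, limma's adjusted p = 0.051 and 0.073). MXI1 also lost its call without the filter (limma's adjusted p = 0.061) and when any of senescent samples 1 to 4 was left out (limma's adjusted p 0.059 to 0.060). Without senescent sample 1 the list gave 2 higher calls, and without senescent sample 4 it gave 3. With the ACTB covariate or reference gene centring 1 member was called higher.

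The HIF genes themselves did not move one way. EPAS1, which encodes HIF-2 alpha, rose by 1.05 (12.82 ± 0.04 in senescent and 11.77 ± 0.30 in proliferating samples, SD, n = 5 each, limma's adjusted p = 5.5e-05), while HIF1A differed by 0.17 and did not pass (limma's adjusted p = 0.055). Of 12 tested genes of this list 4 rose and 3 fell, 58.3% called and close to the 60.2% over all tested genes, with a median of 0.13. The HIF inhibitors CITED2 and HIF1AN rose by 0.61 and 0.41, HIF1AN losing its call with reference gene centring (limma's adjusted p = 0.053). The partner gene ARNT2, the HIF prolyl hydroxylase gene EGLN1 and the co-activator gene CREBBP fell by 1.65, 0.52 and 0.43.

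PPAR targets and receptors, the other known input of ANGPTL4, gave 8 higher and 4 lower calls among 19 tested genes, with a median of 0.16. That is 63.2% called, close to the 60.2% over all tested genes. The fatty acid transporter gene CD36 rose by 3.95 (6.74 ± 0.35 in senescent and 2.79 ± 0.02 in proliferating samples, SD, n = 5 each), the carnitine carrier gene SLC25A20 by 1.78 and the kinase gene PDK4 by 1.22, PDK4 with values below the 60th percentile on every array. CD36, like ANGPTL4, had no proliferating array above that percentile. UCP2, a mitochondrial carrier, fell by 2.03 and the receptor gene PPARG by 0.63. FABP4 fell by 1.04, but only 1 proliferating array lay above the 60th percentile, and the call was lost when any single senescent array was left out or when proliferating sample 1 was (limma's adjusted p 0.062 to 0.076). FABP4 also did not pass without the filter (limma's adjusted p = 0.072) or with the ACTB covariate (-1.43, limma's adjusted p = 0.074).

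**Figure D4:**
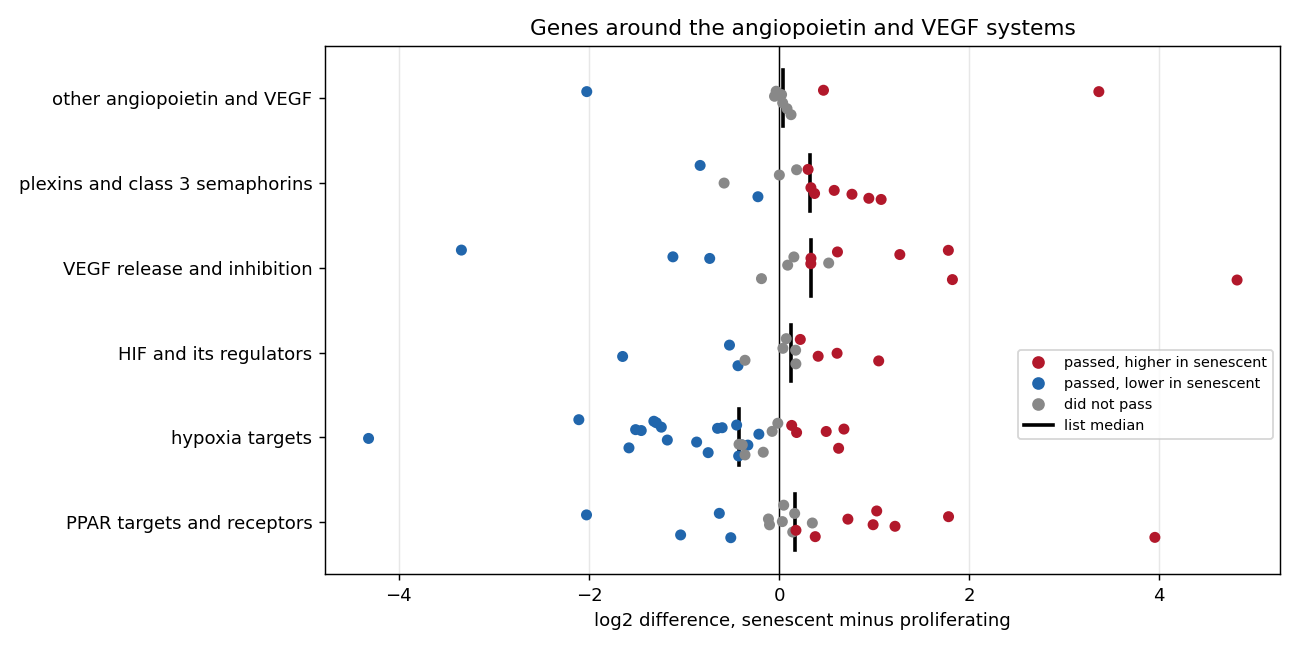
Log2 difference of each tested gene of 6 lists, from the brightest probe set tested, with a black bar at the list median. Hypoxia targets have a median of -0.42 and the other 5 lists medians between 0.04 and 0.34.

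The genes most like 3 members were found by the root mean square difference between values centred on each gene's own mean over the 10 arrays, among 12909 tested genes. Closest to ANGPT1 were the interleukin receptor gene IL21R (0.29), ANGPTL4 (0.32) and the histone gene H2AC6 (0.34). Closest to ANGPTL4 were IL21R (0.20), the forkhead factor gene FOXE1 (0.21) and the complement gene C7 (0.24). Closest to VEGFA were CDCP1 (0.12), SMAD1 (0.15) and FAP (0.16), which had differences of -1.54, -1.64 and -1.69. All of these likenesses are carried mainly by the same step between the 2 groups of arrays.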

How the data were processed

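Total RNA was extracted with Trizol and labelled with biotin, per the labels' protocols. Each array's deposited column holds a log2 value for every probe set. They were made with Partek and GCRMA, per the submitters' processing notes, which give no settings here. That the scale is log2 was inferred from the values' range. Of 54675 probe sets 62 were controls and were left out of tests, 41091 had 1 gene symbol, 1801 several and 11721 none. Symbols were updated through gene identifiers (41037) with RefSeq GRCh38.p14, and 54 kept the older name. Precision is limited by having 5 arrays in each group. All 10 arrays entered a limma 3.58.1 fit (lmFit, then eBayes; R 4.3.3) with no block, and the fit was tested on simulated data. Single values were tested by exact permutation, two-sided. Figures used matplotlib 3.10.9.

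All 34 member probe sets were accounted for. From 6 pathway lists up to 3 called genes with the largest difference in each direction were named, and likeness was given for ANGPT1, ANGPTL4 and VEGFA. Members, lists and alternatives were chosen with earlier results of these data known. No scan dates were used here, and scan batches were not tested.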

Additional observations from a re-analysis of the deposited data

Results flagged for a closer look

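Of 68 groups of 5 arrays (34 probe sets in 2 groups) 8 held an array whose gap to its neighbour was wide for the group's range, by Dixon's criterion, and chance flags about 1 in 20 groups. Proliferating sample 5 was the low array in 4 of them. It lay at 9.77 on VEGFA 210512_s_at, next to 10.68, at 9.59 on TEK 206702_at, next to 9.93, at 7.41 on NRP2 225566_at, next to 7.91, and at 2.79 on FLT1 204406_at, next to 2.81. Senescent sample 3 was apart in another 3, high on FLT1 226497_s_at (9.23) and NRP2 223510_at (9.70) and low on FLT1 232809_s_at (3.91). Senescent sample 1 was high on NRP2 1555468_at (3.21). Over the 24 tested member probe sets above the 60th percentile on at least 1 array, senescent sample 5 was the lowest of its group on 12 and proliferating sample 5 the lowest of its group on 13.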

How the results depend on the processing

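Member counts stayed at 8 higher calls, and at 14 to 15 lower calls, when each array was left out in turn, and at 8 and 15 with 4 against 4 arrays, array weights, quantile normalisation and centring on the tested median. They were 10 and 15 without the filter, 8 and 14 with the stricter filter, and 9 and 15 with trend and robust. With the ACTB covariate they were 6 and 12. Calls over all tested probe sets fell as well with this covariate, from 8798 higher and 8562 lower to 6544 and 6744. Some calls were lost although the difference grew in size, as for FABP4, and others where it shrank, as for ITGAV. This covariate can hardly be separated from group, so a lost call there does not show that a difference is absent. Without shared probe sets 4 members were higher and 7 lower of 16 tested, and 5343 higher and 4847 lower of 20950 probe sets, because fewer were tested. That setting also gave 2 lower calls among other angiopoietin and VEGF genes and 11 among hypoxia targets. The block on replicate number gave 8 higher and 17 lower members. Deviations of same-numbered arrays correlated by only -0.057 to 0.091, and 2 of 5 senescent arrays fitted best with their own number. No clear pairing by number was seen, but so few arrays cannot exclude one. Higher calls with reference gene centring were 1 for other angiopoietin and VEGF genes, 4 for plexins and semaphorins, 2 for HIF genes and 1 for hypoxia targets, and with the ACTB covariate 1, 4 and 1 for the first, second and last of these. Hypoxia targets had 3 higher calls with 4 against 4 arrays and 2 to 5 when each array was left out. The stricter filter left 1 lower call for VEGF release genes, and probe set means left 1 for plexins and semaphorins. Direction turned for TEK (-0.23) and P4HA2 (-0.0659) with probe set means, and, without a call on either side, for ANGPT1 1552939_at (-0.0878), FLT1 204406_at (-0.13) and NRP2 1555468_at (-0.0711) with reference gene centring. Where no alternative's construction shows it, the cause was not tested. Of 1455 values of single genes and probe sets under alternatives, 38 kept their direction and no longer passed, 8 passed that had not, and the 5 above turned direction, of which TEK and P4HA2 no longer passed. Low signal limits ANGPTL4, VEGFB and the probe sets below the 60th percentile.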
